A study of Mus musculus with 68 samples.

Results

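Uteri of wild-type mice collected 24 h after 17β-oestradiol (E2) were compared directly with uteri collected 2 h after it. The members are the 18 of 68 arrays of the series whose titles mark wild-type tissue and E2 treatment, 9 at 2 h and 9 at 24 h, and the mouse set they came from was kept as a blocking term. All animals had been ovariectomized, which removes the main source of their own oestrogen, and received an intraperitoneal injection of 250 ng E2 in saline. There were 3 mouse sets, each with 3 arrays per time: C57Bl6 mice bought from a vendor, wild-type littermates of the Ex3aERKO line (an Esr1-null line), and wild-type littermates of the ERaUtcKO line. Animal ages were not given in the sources used here. ERaUtcKO mice carry floxed Esr1 and Cre expressed from the Pgr gene, so that Esr1, which encodes oestrogen receptor α (ERα), is removed only in cells that have expressed the progesterone receptor. Set beside the 18 arrays were 8 wild-type vehicle arrays (saline, collected at 24 h only), 16 wild-type arrays after IGF1 (7 at 2 h, 9 at 24 h), 6 ERaUtcKO arrays after E2 and 4 Ex3aERKO arrays after E2. IGF1 had been given either by injection or from an implanted pump, and the labels do not tell which mouse had which. Nothing in the labels says that replicates came from separate animals or pools, so p-values measure the spread between these samples, which may be technical.

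The rodent uterus answers E2 in phases. Within hours, ERα bound to chromatin raises the transcription of growth-factor, vascular and immediate-early genes, and water enters the stroma. About a day later the luminal and glandular epithelium replicates its DNA and divides, and it then makes secreted and barrier proteins. Growth factors made in the stroma, IGF1 among them, carry part of the mitogenic signal to the epithelium.

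Values are the deposited log2 intensities for 30142 genes, and a shift is the 24 h value minus the 2 h value on that scale, so a shift of 1 is a 2-fold rise. A gene was called, and is said to have risen or fallen, where limma's adjusted p for the shift was under 0.05. Array medians ran from 5.82 to 6.50 and were lowest in the Ex3aERKO littermates, and the antigenomic background probes ran from 3.40 to 4.45. The number of arrays limits the precision. Pairs of C57 replicates shared between 561 and 1025 identical gene values and pairs of littermate replicates at most 23. The normalization was not given in the sources used here, and levels were not tested across sets. Remarks on ranges or overlap over 9 arrays describe the deposited values only. A low or high value quoted over 9 arrays can therefore reflect the mouse set as much as the animal. Because the tissue was bulk uterus, a lower value can mean fewer cells of a type or less RNA per cell, and the arrays cannot tell these apart.

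From 2 h to 24 h 15971 genes changed (53.0% of those tested), 8347 of them rising (27.7%) and 7624 falling (25.3%). Counts of rising and falling genes in the lists below are to be read against these shares. A change of at least 2-fold was called for 1748 rising genes (5.80%) and 899 falling genes (2.98%). The split of directions depends on scaling: 52.3% of called genes rose in the deposited values, 66.4% when each array was first centred on its own median and 48.7% after quantile normalization. Likewise the large changes numbered 2077 rises and 747 falls after centring, and 1373 and 1248 after quantile normalization, so the excess of large rises was small there. Of the 2647 genes that changed at least 2-fold, 2637 moved in the same direction in each mouse set, and for 2552 the 3 arrays at 2 h and the 3 at 24 h did not overlap in any of the sets, against 8721 of all genes (28.9%). The genes were chosen for a large called change on these same arrays, so both high counts follow in part from the choice and are no independent support. Protein-coding genes made up 1377 of the large rises and 697 of the large falls.

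Most large rises were late inductions and most large falls were early inductions that had receded. Relative to vehicle tissue, 1121 of the 1748 genes (64.1%) were within 2-fold of vehicle at 2 h and at least 2-fold above it at 24 h. A second class of 195 (11.2%) had been at least 2-fold below vehicle at 2 h and was back within 2-fold at 24 h, so that its rise was a recovery. Of the 899 falling genes, 468 (52.1%) were at least 2-fold above vehicle at 2 h and within 2-fold of it at 24 h, and 37 (4.12%) were above it at both times. Only 14 (1.56%) crossed from above vehicle to below it, while 136 (15.1%) left the vehicle range downward between the times. Since vehicle tissue was collected at 24 h only, the 2 h position has no vehicle of its own time.

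**Figure D1:**
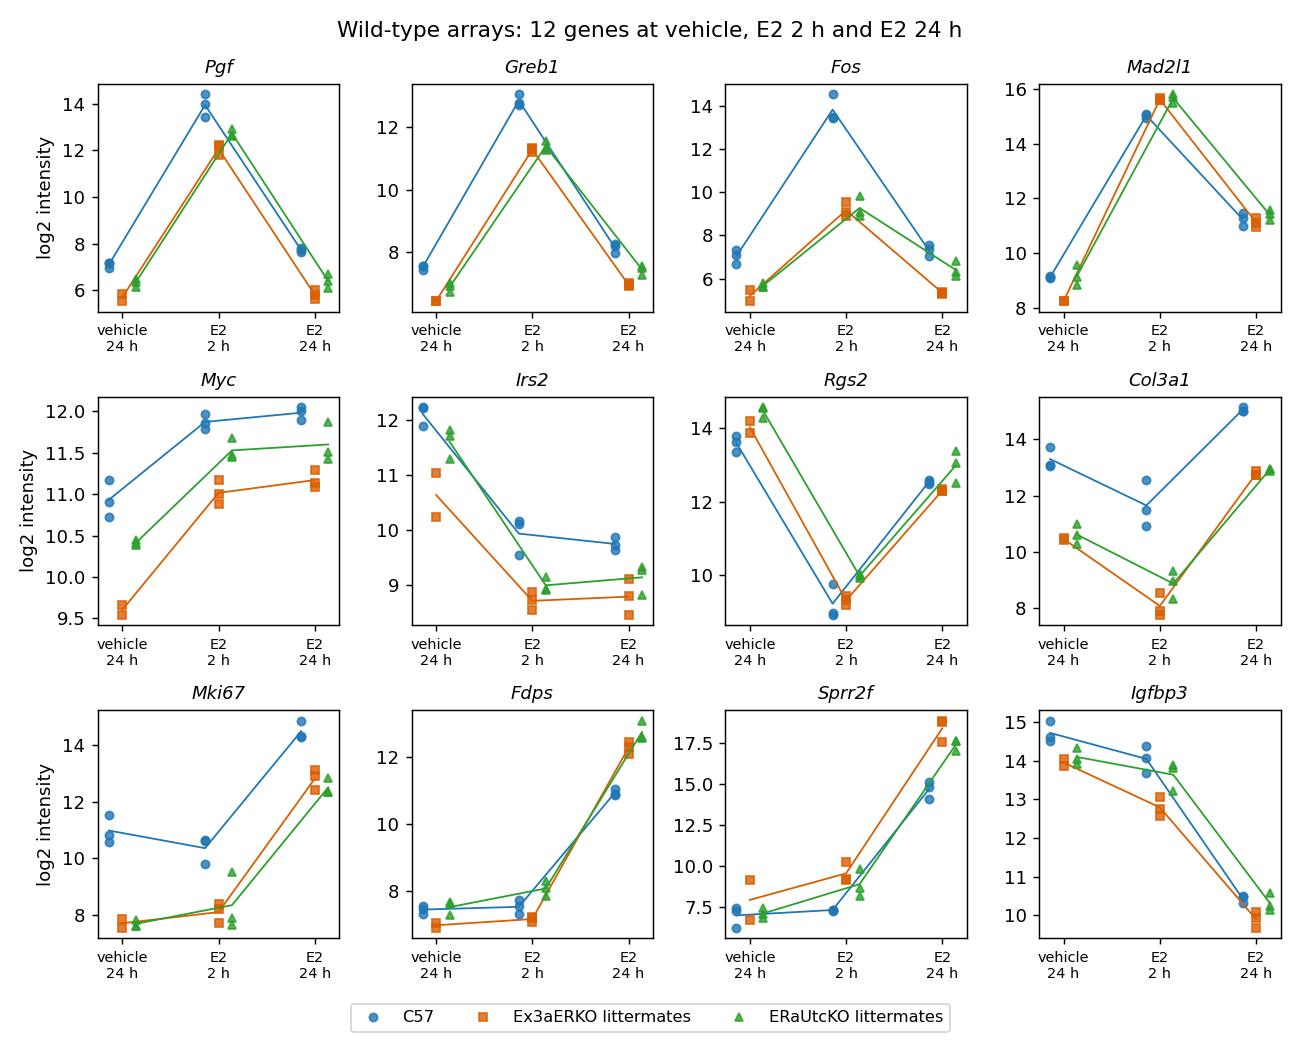
Log2 intensity of 12 genes (y axis, a separate scale for each gene) in wild-type uterus after vehicle, E2 for 2 h and E2 for 24 h (x axis). Each point is 1 array, coloured by mouse set, and lines join the set means. Pgf, Greb1, Fos and Mad2l1 peak at 2 h, Myc and Irs2 show close levels at both E2 times, Rgs2 and Col3a1 dip at 2 h, Mki67, Fdps and Sprr2f rise by 24 h, and Igfbp3 falls further at 24 h.

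The largest fall belonged to Pgf, which encodes placental growth factor, a relative of VEGF. Its log2 level was 11.78, 12.65 and 14.41 at 2 h (lowest, median and highest of 9) and 5.63, 6.39 and 7.80 at 24 h, with no overlap. The shift was −6.27 ± 0.11 (SE), a 76.9-fold fall (limma adjusted p 7.5e-17). Pgf stood 6.54 above vehicle at 2 h and 0.28 above at 24 h. Its 24 h range included the background level of 6.12, which limits the fold. Gadd45g, a stress-inducible growth-arrest gene, ran from 11.41 to 16.00 at 2 h (median 12.23) and from 6.19 to 9.24 at 24 h (median 7.04), a shift of −5.74 ± 0.24 (adjusted p 1.21e-12). Rasd1, a Ras-related GTPase inducible by glucocorticoids, fell from a median of 12.36 to 6.87 (shift −5.36 ± 0.20, adjusted p 4.05e-13). These 3 genes did not overlap between times in any set.

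Several other large falls came after strong induction at 2 h. B4galt5, a galactosyltransferase of glycolipid synthesis, lay between 14.56 and 16.05 at 2 h and between 9.21 and 11.17 at 24 h (shift −5.10 ± 0.12, adjusted p 9.38e-16). Tiparp, an ADP-ribosyltransferase known as a target of the aryl hydrocarbon receptor, went from 14.02 to 14.85 at 2 h to 8.82 to 10.24 at 24 h (shift −4.88 ± 0.09, adjusted p 9.37e-17). Dennd2a, a Rab exchange factor, lay at 12.57 to 13.51 against 7.51 to 8.18 and fell 33.3-fold (shift −5.06 ± 0.08, adjusted p 1.74e-17). Adamts4, a protease that cuts proteoglycans, fell 38.9-fold, Ccn1, a matricellular protein, 34.3-fold, Pparg, a nuclear receptor, 27.4-fold, Irak3, an inhibitor of Toll-like receptor signalling, 25.2-fold, Ripor2 23.7-fold and Apold1, an endothelial early-response gene, 23.4-fold. All of them were within 2-fold of vehicle at 24 h, and none overlapped between the times across the 9 arrays.

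Immediate-early genes, most of them transcription factors induced without new protein synthesis, fell almost throughout. Of 27 measured genes 25 fell, 18 of them at least 2-fold, and none rose, with a median shift of −1.36 against −0.02 over all genes tested. Fos, which pairs with Jun to form AP-1, had 8.88, 9.52 and 14.54 at 2 h (lowest, median, highest) and 5.30, 6.29 and 7.54 at 24 h. The C57 arrays were the high ones. Its shift was −4.40 ± 0.40 (adjusted p 2.91e-08). Nr4a1, an orphan nuclear receptor, spanned 9.66 to 16.06 at 2 h and 6.44 to 10.33 at 24 h, so the times overlapped across sets although not within any of them, and it fell by 3.84 ± 0.52 (adjusted p 4.2e-06). The list's median stood 1.73 above vehicle at 2 h and 0.17 above at 24 h.

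These 2 promoters are shown because they hold the motifs through which immediate-early genes are classically switched on. Each is the 250 bases before the transcription start in RefSeq's GRCm38.p6 table, written 5′ to 3′ along the gene's strand. Capitals mark a cyclic AMP response element (CRE, letters TGACGTC on either strand) in Btg2, an antiproliferative gene, and a CArG box, where serum response factor binds, in Zfp36, which encodes an RNA-binding protein that speeds mRNA decay. The Btg2 window is chr1:134079156-134079405 on the minus strand, with a CRE on each strand that overlap, from 166 to 159 bases before the start. The Zfp36 window is chr7:28379229-28379478 on the minus strand, with the CArG box 58 to 49 bases before the start.
Btg2: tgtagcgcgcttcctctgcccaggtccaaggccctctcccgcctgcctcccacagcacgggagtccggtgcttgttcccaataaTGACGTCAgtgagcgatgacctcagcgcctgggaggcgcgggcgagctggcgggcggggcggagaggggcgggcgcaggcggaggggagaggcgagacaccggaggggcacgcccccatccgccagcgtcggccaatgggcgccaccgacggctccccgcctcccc
Zfp36: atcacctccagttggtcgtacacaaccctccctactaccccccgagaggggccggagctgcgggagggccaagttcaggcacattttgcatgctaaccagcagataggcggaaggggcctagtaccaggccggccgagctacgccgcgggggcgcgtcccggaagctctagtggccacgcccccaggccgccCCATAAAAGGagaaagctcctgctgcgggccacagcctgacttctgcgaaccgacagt
Both genes were picked for their motifs after their values were seen. Btg2 ran from 9.53 to 11.15 at 2 h and from 8.02 to 9.31 at 24 h (shift −1.54 ± 0.18), and Zfp36 from 11.76 to 13.99 and from 8.25 to 11.90 (shift −3.04 ± 0.19). Among the 18 promoters of the list that could be matched, 2 held a CRE (11.1%, against 3.4% of all 15155 matched promoters) and 2 a CArG box (11.1% against 1.32%). Among the 454 matched promoters of all genes at least 2-fold lower at 24 h, the shares were 5.73% for a CRE and 1.76% for a CArG box. A match in letters is a description of the sequence and not evidence of a bound site.

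Feedback inhibitors of the ERK kinase cascade, which the cascade itself induces, fell in 10 of 16 measured genes and rose in 2, with a median shift of −0.83. Errfi1, an inhibitor of the EGF receptor, lay between 12.04 and 14.67 at 2 h and between 8.44 and 11.00 at 24 h (shift −3.51 ± 0.13, adjusted p 2.46e-13). Dusp1, a phosphatase of MAP kinases, fell 7.75-fold. The 2 that rose were Etv5, an ETS factor that had been 1.32 below vehicle at 2 h and was 0.27 above at 24 h, and Spry1, a Sprouty inhibitor, whose shift was only 0.19 ± 0.06 (adjusted p 0.0157).

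Early E2-responsive uterine genes, a list that was drawn up for this behaviour and is therefore no independent evidence of its direction, fell in 17 of 20 measured members and rose in 1, with a median shift of −2.73. Greb1, a direct ERα target that acts as its cofactor, had values of 11.20, 11.34 and 13.05 at 2 h and 6.92, 7.51 and 8.26 at 24 h (shift −4.31 ± 0.10, adjusted p 9.38e-16). The lowest 2 h array was well above the highest 24 h array. Mad2l1, which encodes a spindle checkpoint protein, is counted on this list. It stood at 14.94 to 15.81 at 2 h and 10.95 to 11.58 at 24 h, fell 18.1-fold (adjusted p 2.14e-15) and was still 2.35 above vehicle. Sox4, a transcription factor, was the riser: it had been 3.46 below vehicle at 2 h and recovered by 2.02 ± 0.10 to 1.44 below. None of the 13 matched promoters of this list held a full palindromic oestrogen response element (GGTCANNNTGACC), which only 9 of the 15155 matched promoters hold (0.0594%), so these letters are not in those windows and nothing follows about ERα.

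Growth-factor and vascular signals were split. In the vascular list 8 of 21 measured genes rose and 8 fell, with a median of 0.05. Vegfa, the main inducer of vascular permeability, went from 13.42 to 15.22 at 2 h (median 13.80) to 9.45 to 11.59 at 24 h (median 10.26), with no overlap, and fell 12.6-fold (shift −3.66 ± 0.08, adjusted p 7.24e-16). Vegfd, a lymphatic growth factor, and Aplnr, the apelin receptor of endothelium, had been 1.28 and 1.11 below vehicle at 2 h. They then rose by 1.39 ± 0.08 and 2.54 ± 0.13, which left Vegfd at its vehicle level (0.10 above) and Aplnr 1.44 above it. Of EGF and FGF family genes 11 of 22 fell and 5 rose. Hbegf, a ligand of the EGF receptor, fell 10.5-fold (adjusted p 2.54e-12), whereas the receptor gene Erbb3 rose 3.41-fold (adjusted p 4.6e-09) and the stromal ligand Fgf7 recovered from 1.29 below vehicle to 0.09 above.

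Genes of the IGF axis moved separately. Of 19 measured, 8 rose and 6 fell, where 27.7% and 25.3% of all genes did. Igf1, the ligand, lay at 12.53 to 13.37 at 2 h and 11.76 to 12.78 at 24 h, with overlap across sets. It fell by 0.90 ± 0.12 (adjusted p 2.43e-06) and was still 1.40 above vehicle. Its receptor gene Igf1r and the adaptor Irs2 were both below vehicle at 24 h, by 1.73 and 2.25, but along different courses. Igf1r fell between the times (shift −1.28 ± 0.07, adjusted p 1.57e-11), whereas Irs2 had reached its low level by 2 h (8.54 to 10.16) and its 24 h values (8.47 to 9.87) did not differ from it by the test (shift 0.01 ± 0.11, adjusted p 0.941). Among the binding proteins, Igfbp5 rose 10.9-fold and Igfbp4 3.17-fold, and Igfbp3 fell 9.64-fold. The Igfbp3 values were 12.56, 13.67 and 14.39 at 2 h and 9.68, 10.25 and 10.59 at 24 h (adjusted p 7.07e-13), the latter 4.01 below vehicle. Pappa, a protease that frees IGF from binding proteins, fell by 1.89 ± 0.08 to 2.41 below vehicle.

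The 6 genes that led the falls at 2 h in C57 mice were read in the littermates, where 5 of them rose between the times. Rgs2, which quenches signalling through G proteins, had a vehicle median of 14.03 over the wild-type arrays, 2 h values of 8.93, 9.42 and 10.04 and 24 h values of 12.28, 12.50 and 13.39. In the littermates its shift was 3.00 ± 0.12 (adjusted p 1.24e-09), from a difference to vehicle of −4.59 at 2 h to one of −1.59 at 24 h. Rspo3, a secreted amplifier of WNT signals, rose there by 2.85 ± 0.20 and Pcdh18, a protocadherin, by 2.69 ± 0.16. Kcnj8, a potassium channel subunit of vessel walls, rose by 1.27 ± 0.10 and Ptch1, the Hedgehog receptor, by 1.43 ± 0.11, and Ptch1 still differed from vehicle by −2.03 at 24 h. The tight-junction gene Cldn1 did not pass the test (littermate shift 0.44 ± 0.25, adjusted p 0.153).

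Of 17 SOX, GATA, HOX and other uterine patterning factors 9 rose and 4 fell, with a median of 0.38. Sox9 and Gata6 fell by 1.55 and 0.84. Hoxa10 and Hoxa11, which pattern the uterus, were 1.87 and 1.82 below vehicle at 2 h and 0.20 and 0.47 above it at 24 h, after rises of 4.18-fold and 4.89-fold. Nr2f2, the stromal nuclear receptor COUP-TFII, rose from 8.89 to 9.86 at 2 h to 11.24 to 11.88 at 24 h (shift 2.18 ± 0.09, adjusted p 8.5e-13) and was 0.48 below vehicle. Col3a1, a fibrillar collagen, had 2 h values of 7.78, 8.97 and 12.55 and 24 h values of 12.74, 12.94 and 15.14, the C57 arrays being the high ones at each time. It rose by 4.05 ± 0.21 (adjusted p 2.23e-11), from 1.91 below vehicle to 2.14 above. Col1a1 rose 15.5-fold. Over the matrix list 18 of 26 genes rose and 5 fell, among the latter Tgfbi, an adhesion protein, which fell by 3.24 ± 0.11 to 3.83 below vehicle, and Adamts1, a protease that fell by 2.46 ± 0.14 but remained 1.17 above.

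Among steroid receptors and coregulators 4 of 11 measured genes rose and 5 fell. Pgr, the progesterone receptor and a classical E2 target, lay at 15.89 to 17.13 at 2 h and 14.47 to 15.73 at 24 h, fell 2.82-fold (adjusted p 5.45e-11) and was 0.61 above vehicle. Nrip1, a corepressor induced by E2, fell 9.46-fold to 0.33 above vehicle. Esr1 rose by 0.39 ± 0.06 (adjusted p 5.34e-05), from 0.65 below vehicle to 0.26 below. In the progesterone-pathway list 7 of 15 rose and 4 fell, where 27.7% and 25.3% of all genes did. Ihh, the epithelial signal that progesterone induces, was among those that fell (shift −1.10 ± 0.07).

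Some levels raised at 2 h were still raised at 24 h. Myc, a driver of growth genes, was 1.13 above vehicle at 2 h and 1.24 above at 24 h, with a shift of 0.11 ± 0.06 that did not pass the test (adjusted p 0.149). Hspa5, the main chaperone of the endoplasmic reticulum, fell by 0.25 ± 0.06 (adjusted p 0.00111) yet lay at 12.68 to 14.00 at 24 h against a vehicle median of 11.22. Ribosome biogenesis genes had a median 0.94 above vehicle at 2 h and 1.05 above at 24 h, and between the times 7 of 22 rose and 12 fell. Fbl, a nucleolar methyltransferase, rose 1.84-fold and Dkc1, the pseudouridine synthase of snoRNPs, 2.56-fold, while Wdr43 and Tsr1 fell by 0.98 and 0.95. Heat-shock chaperones had medians 0.89 and 0.94 above vehicle at the 2 times, and between them 2 of 11 rose and 6 fell, with the mitochondrial chaperonins Hspd1 and Hspe1 rising 1.58-fold and 1.65-fold and the cytosolic Hsph1 falling 3.71-fold.

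Klk1, a secreted kallikrein protease, and Klk1b5 were among the strongest inductions at 2 h and were still above vehicle a day later. Klk1 lay at 13.85, 15.08 and 16.19 at 2 h and at 10.24, 11.68 and 12.49 at 24 h. Its shift was −3.47 ± 0.32 (adjusted p 3.01e-08), and it stood 8.81 and 5.34 above vehicle. Kallikrein genes are near-identical copies whose probes may share signal, so the assignment to a single gene is uncertain. Slc7a5, an amino acid transporter, and Cdkn1a, the CDK inhibitor p21, followed the same partial course. They fell 8.14-fold and 6.62-fold to 1.63 and 1.76 above vehicle.

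**Figure D2:**
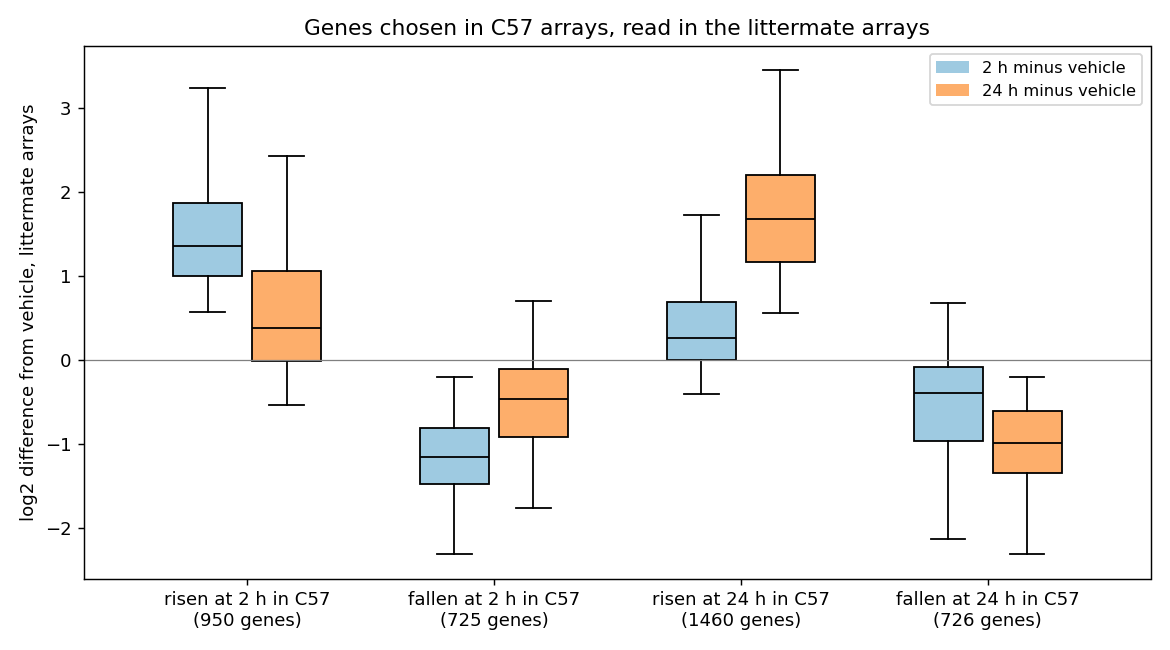
Genes chosen in C57 arrays by a called change of at least 2-fold from vehicle at 2 h or 24 h, read in the littermate arrays of both knockout lines. The y axis is the log2 difference from littermate vehicle. Boxes span the quartiles with the median line and whiskers reach the 5th and 95th percentiles. The medians were 1.36 at 2 h and 0.39 at 24 h for genes risen at 2 h, and 0.27 and 1.68 for genes risen at 24 h.

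To describe the passage from early to late without using the same arrays for choice and reading, genes were chosen in the C57 arrays and read in the littermates. Of 950 genes risen at 2 h in C57, 751 were lower at 24 h than at 2 h in the littermates, where 24.6% of all genes were, and 90 were higher, with a median shift of −0.88. By 24 h 680 of them were within 2-fold of littermate vehicle and 253 were still at least 2-fold above, against 27046 and 2261 of all 30142 genes. Of 725 genes fallen at 2 h, 507 were higher at 24 h (25.5% of all genes) and 59 lower. By 24 h 539 of these were within 2-fold of vehicle, against the same 27046 of all genes.

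Most late responders had been near vehicle at 2 h, as had most genes. Of 1460 genes risen at 24 h in C57, 1323 were higher at 24 h than at 2 h in the littermates, with a median shift of 1.26. At 2 h 1248 had been within 2-fold of littermate vehicle while 205 were already at least 2-fold above. Of all 30142 genes 28398 were within 2-fold then and 1032 at least 2-fold above, so a rise by 2 h was more frequent among the late genes. Of 726 genes fallen at 24 h, 453 were lower than at 2 h and 82 higher (median shift −0.52). At 2 h 536 of them had been within 2-fold of vehicle, against the same 28398 of all genes.

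Single leading genes of these groups were read in the littermates too. Dhrs9, a retinol dehydrogenase and a leading gene risen at 24 h in C57, rose there by 3.36 ± 0.19 (limma adjusted p 1.91e-08). Galnt15, a mucin-type glycosyltransferase among those fallen at 24 h, differed from littermate vehicle by −2.22 at 2 h and −3.39 at 24 h and fell by 1.18 ± 0.12 between the times (adjusted p 2.72e-06). Not every leading gene moved: Apoa2, an apolipoprotein of liver, also led the fallen genes in C57 and had a littermate shift of −0.09 ± 0.20 (adjusted p 0.728). Alb and Ahsg, also liver transcripts, were among the leading genes fallen at 24 h too. The summed liver signal of the C57 arrays was 15.79 to 17.74 in vehicle and 10.43 to 10.68 at 24 h. Its part in the choice of the genes fallen at 24 h was not tested. The other leading genes are described with their functions over all 18 arrays, which include the C57 arrays used to choose them. In the littermates Pgf shifted by −6.29, Fos by −3.34, Klk1 by −3.01, Igfbp3 by −3.10 and Sprr2f by 8.71, each past the test. Pdk4, a kinase that holds back pyruvate oxidation, was named for its difference from IGF1 and crossed its vehicle level. It was 3.09 above at 2 h (12.28, 12.52 and 13.80) and 1.31 below at 24 h (7.77, 8.64 and 8.96), a fall of 21-fold (adjusted p 1.39e-14).

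Cell-division genes rose nearly as a whole. In the mitosis and cytokinesis list 31 of 32 measured genes rose, 30 of them at least 2-fold, with a median shift of 2.73, and the median stood 0.07 above vehicle at 2 h and 2.86 above at 24 h. Mki67, the proliferation antigen Ki-67, had 7.63, 8.38 and 10.66 at 2 h and 12.33, 12.89 and 14.85 at 24 h. No 24 h array overlapped a 2 h array, and the shift was 4.33 ± 0.22 (20.1-fold, adjusted p 1.3e-11). Ube2c, the ubiquitin-conjugating enzyme of the anaphase-promoting complex, rose 26.4-fold and Ccnb2, a mitotic cyclin, 25-fold. Pttg1, which encodes securin, was the exception and fell by 0.29 ± 0.08 (adjusted p 0.00329).

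DNA replication genes rose in 38 of 39 cases, 27 of them at least 2-fold, with a median of 1.33. Mcm3, a subunit of the replicative helicase, went from 7.12 to 9.45 at 2 h to 10.35 to 12.20 at 24 h (shift 3.04 ± 0.11, adjusted p 1.81e-13), and Mcm2 rose 4.63-fold. Rrm1, the large subunit of ribonucleotide reductase, rose 7.51-fold with ranges of 9.39 to 10.94 and 12.55 to 13.51. Tk1, thymidine kinase, was the member that did not pass (shift 0.32 ± 0.25, adjusted p 0.304), and it differed between sets, with set shifts of 1.72 in C57, −0.37 in Ex3aERKO littermates and −0.41 in ERaUtcKO littermates.

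Regulators around the G1 to S transition rose in 18 of 19 cases, with a median of 0.90. E2f8, a repressor in the E2F family, rose 6.62-fold, and Myb, a transcription factor of cycling progenitors, 5.79-fold. Ccnd2, an early G1 cyclin, was the exception: 10.85 to 12.54 at 2 h became 10.33 to 11.34 at 24 h (shift −1.06 ± 0.12). Among chromatin assembly genes 9 of 11 rose, including Uhrf1, which maintains DNA methylation (5.93-fold), and Hells, a chromatin remodeller (5.31-fold). H1f5, a linker histone made during replication, rose 24.3-fold. Growth-arrest genes were divided, 7 of 15 rising and 7 falling. The cyclin-dependent kinase inhibitor Cdkn1b was 1.68 below vehicle at 2 h and 0.61 below at 24 h after a rise of 1.07 ± 0.11, and Ccng1, a p53 target, rose 2.33-fold.

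Promoters of 2 cell-cycle genes are printed because they hold the letters of elements known to time transcription in the cycle. In Ube2c, at chr2:164769679-164769928 on the plus strand (GRCm38.p6), capitals mark a CHR element (TTTGAA on either strand) 29 to 24 bases before the start and 6 CCAAT boxes (CCAAT on either strand), 2 of which overlap. In Mcm6, another helicase subunit, at chr1:128359706-128359955 on the minus strand, they mark 3 E2F sites (TTTGGCG or TTTCGCG on either strand), 2 of them overlapping between 110 and 99 bases before the start and 1 at 47 to 41.
Ube2c: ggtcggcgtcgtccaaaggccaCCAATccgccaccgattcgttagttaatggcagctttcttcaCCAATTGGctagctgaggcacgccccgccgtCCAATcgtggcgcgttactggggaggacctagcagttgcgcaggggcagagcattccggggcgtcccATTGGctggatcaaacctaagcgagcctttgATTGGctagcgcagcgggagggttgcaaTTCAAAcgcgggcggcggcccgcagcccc
Mcm6: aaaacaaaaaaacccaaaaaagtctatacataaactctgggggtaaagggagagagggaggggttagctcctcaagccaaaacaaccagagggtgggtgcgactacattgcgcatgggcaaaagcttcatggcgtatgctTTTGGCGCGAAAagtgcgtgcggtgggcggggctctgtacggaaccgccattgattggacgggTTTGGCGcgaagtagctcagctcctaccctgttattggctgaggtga
Mcm6 was picked for its motifs after its values were seen, and it ran from 8.59 to 10.06 at 2 h and from 11.39 to 11.93 at 24 h (shift 2.58 ± 0.15). A CHR element was present in 9 of the 25 matched mitosis promoters (36.0%, against 15.3% of all) and a CCAAT box in 18 (72.0%, against 35.8%). E2F letters were present in 6 of the 28 matched replication promoters (21.4%, against 2.33%). These shares belong to the lists. Among the 951 matched promoters of all genes at least 2-fold higher at 24 h, 14.3% held a CHR element, 46.1% a CCAAT box and 4.73% E2F letters.

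**Figure D3:**
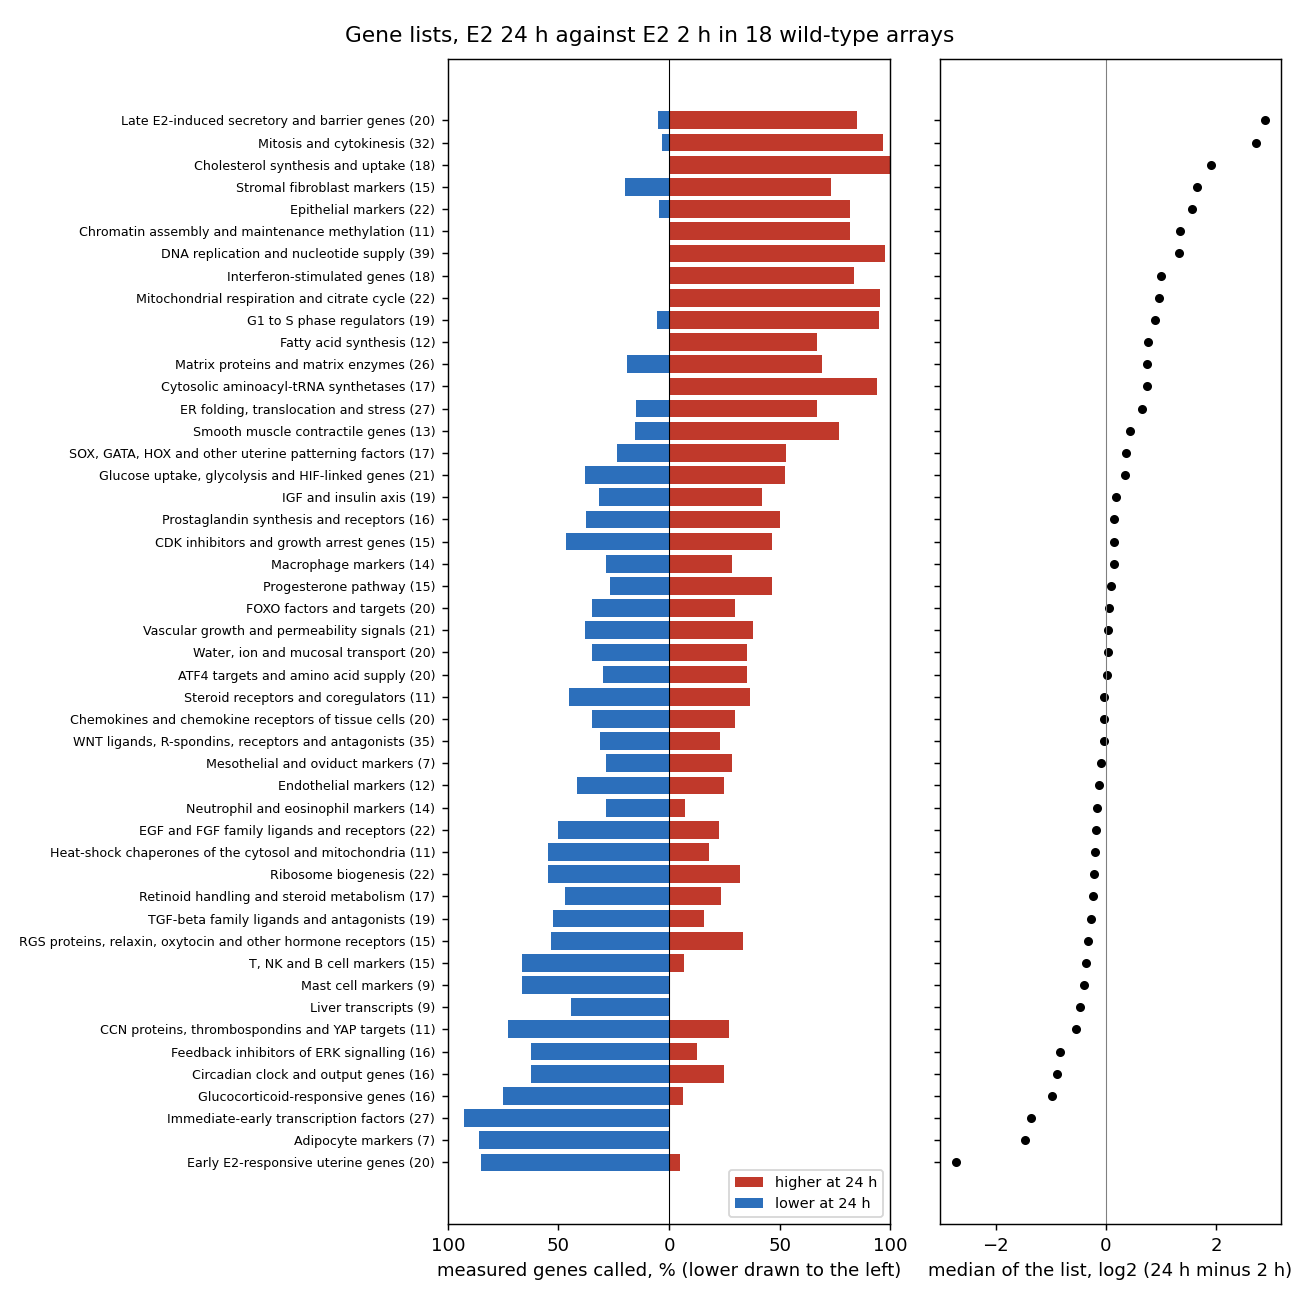
The 48 gene lists with at least 7 measured genes, ordered by median shift (measured genes in parentheses). The left panel gives the percentage of measured genes called higher (red, to the right) or lower (blue, to the left) at 24 h than at 2 h in the 18 arrays, and the right panel the median log2 shift. The early E2-responsive genes are at the bottom with a median of −2.73 and the late secretory and barrier genes at the top with 2.89.

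Anabolic and respiratory genes rose with the dividing phase. All 18 measured genes of cholesterol synthesis and uptake rose, 16 at least 2-fold, with a median of 1.92. Fdps, which makes farnesyl pyrophosphate, had 7.08, 7.55 and 8.30 at 2 h and 10.87, 12.29 and 13.08 at 24 h, a 21-fold rise (shift 4.40 ± 0.19, adjusted p 1.86e-12) with no overlap. Hmgcs1, the HMG-CoA synthase, rose 6.82-fold. Idi1, the isopentenyl diphosphate isomerase, rose 9.01-fold, and its promoter at chr13:8885356-8885605 on the plus strand is printed because all 12 matched promoters of this list held a CCAAT box (100.0%, against 35.8% of all), the site of NF-Y, known to work beside SREBP. Capitals mark its 2 CCAAT boxes, 45 to 41 and 14 to 10 bases before the start.
Idi1: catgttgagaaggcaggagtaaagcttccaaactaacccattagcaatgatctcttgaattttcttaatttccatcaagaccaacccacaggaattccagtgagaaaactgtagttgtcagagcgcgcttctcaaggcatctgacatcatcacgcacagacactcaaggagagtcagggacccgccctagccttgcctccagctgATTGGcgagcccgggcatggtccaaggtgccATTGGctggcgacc
Fatty acid synthesis rose in 8 of 12 genes and fell in none (median 0.77), led by the desaturases Fads2 and Fads1, at 3.9-fold and 3.1-fold.

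Of 22 genes of mitochondrial respiration 21 rose and none fell, with a median of 0.96. Ndufa4, a subunit of the respiratory chain, went from 12.20 to 15.46 at 2 h to 14.72 to 17.67 at 24 h, and rose by 2.20 ± 0.09 (adjusted p 1.02e-12), the ranges overlapping across sets. Atp5g1, an ATP synthase subunit, rose 4.3-fold. Of 21 genes of glucose uptake and glycolysis 11 rose and 8 fell. The enzymes Pgk1 and Tpi1 rose 6.52-fold and 5.22-fold. The transporters Slc16a1 (monocarboxylates) and Slc2a3 (glucose) fell 4.79-fold and 2.58-fold, and the enzymes Pfkfb3 and Hk1 fell by 1.32 and 0.72.

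Cytosolic aminoacyl-tRNA synthetases, which charge tRNAs for protein synthesis, rose in 16 of 17 cases and fell in none. They had started the climb early, since their median was 0.59 above vehicle at 2 h and 1.21 above at 24 h. Kars lay at 11.04 to 12.19 at 2 h and 12.93 to 13.39 at 24 h (shift 1.62 ± 0.09, adjusted p 3.13e-11), and Qars rose 2.54-fold. Among folding and translocation genes of the endoplasmic reticulum 18 of 27 rose and 4 fell, with a median of 0.65. P4hb, a protein disulphide isomerase, rose from 12.60 to 13.89 to 15.24 to 15.69 (4.8-fold), whereas the stress-linked Herpud1 and Ddit3 fell by 1.25 and 0.71. Of 20 ATF4 targets and amino acid supply genes 7 rose and 6 fell, where 27.7% and 25.3% of all genes did. Psat1 and Shmt2, of serine and folate-linked synthesis, rose 4.53-fold and 5.67-fold, and Atf4 itself fell 2.43-fold.

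The largest single rise was in the list of late secretory and barrier genes, a list that was also drawn up for this behaviour. Of 20 measured genes 17 rose, each at least 2-fold, with a median of 2.89, and 1, Klk1, fell. Sprr2f, a small proline-rich protein of epithelial barriers, had 7.27, 8.66 and 10.26 at 2 h and 14.12, 17.56 and 18.89 at 24 h, a 308-fold rise (shift 8.27 ± 0.28, adjusted p 1.06e-13). It was already 1.18 above vehicle at 2 h and was 9.45 above at 24 h. Sprr1a rose 118-fold, from 5.43 to 7.73 to 12.25 to 14.57, and Sprr2b 111-fold. Sprr2 genes are near-identical copies, so signal may be shared among them and the single-gene values are uncertain. Padi1, a protein deiminase, did not pass (adjusted p 0.681): it was 4.43 above vehicle at 2 h and 4.29 above at 24 h, and Sprr1b did not pass either (adjusted p 0.492).

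Other secreted, mucosal and transport genes followed. Ltf, lactoferrin, an E2-induced epithelial secretion, lay at 8.01 to 10.79 at 2 h and 12.77 to 14.07 at 24 h (18.9-fold, adjusted p 2.95e-10). Muc1, a transmembrane mucin, rose 31.5-fold, Clca1, a secreted regulator of chloride currents, 35.6-fold, and Adgrg7, an adhesion receptor, 37.8-fold. Car2, a carbonic anhydrase, had 8.99, 9.83 and 11.58 at 2 h and 14.63, 14.99 and 16.53 at 24 h, and rose 37.5-fold (shift 5.23 ± 0.12, adjusted p 9.38e-16). Lcn2, an iron-binding antimicrobial protein, rose 7.37-fold. Among 20 genes of water and ion transport 7 rose and 7 fell, where 27.7% and 25.3% of all genes did. The chloride channel Cftr rose 7.99-fold, and the sodium channel subunit Scnn1a and the water channel Aqp5 fell 3.12-fold and 2.53-fold.

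The promoter of Sprr2f is printed because AP-1, which Fos and Jun form, is a known activator of genes of this family. It lies at chr3:92364937-92365186 on the plus strand, and capitals mark an AP-1 site (TGACTCA on either strand) 197 to 191 bases before the start.
Sprr2f: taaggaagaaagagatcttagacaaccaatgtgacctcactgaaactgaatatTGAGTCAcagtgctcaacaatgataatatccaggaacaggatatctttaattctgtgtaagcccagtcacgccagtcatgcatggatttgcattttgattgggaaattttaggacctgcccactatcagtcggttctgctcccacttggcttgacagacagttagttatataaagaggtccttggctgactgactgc
Of 16 matched promoters of the list, 6 held these letters (37.5%, against 4.14% of all), namely Sprr1a, Sprr2b, Sprr2d, Sprr2e, Sprr2f and Padi4, most of them near-identical copies of each other. A CCAAT box was present in 10 of the 16 (62.5%, against 35.8% of all). Among the 951 matched promoters of all genes at least 2-fold higher at 24 h, 4.0% held the AP-1 letters, close to the share of all.

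Epithelial markers rose in 18 of 22 cases, 15 at least 2-fold, and 1 fell, with a median of 1.57. Krt8, a keratin of simple epithelium, ran from 10.24 to 11.64 at 2 h and from 13.35 to 14.74 at 24 h (10.3-fold, adjusted p 9.16e-12), and Krt19 rose 5.4-fold. Grhl2, an epithelial transcription factor, fell by 0.61 ± 0.10. The summed signal of the epithelial markers was 13.78 to 14.70 in the 2 h arrays, 13.93 to 14.75 in vehicle and 16.28 to 16.69 at 24 h on the log2 scale, and 21 of 22 markers were above the antigenomic background. The summed stromal signal was 18.06 to 18.44 at 2 h and 18.34 to 18.65 at 24 h, against 18.58 to 19.07 in vehicle. Stromal markers rose in 11 of 15 cases, led by Lum, a matrix proteoglycan (5.51-fold), and fell in 3, Pdgfrb, Dcn and Gli1. The epithelial part of the tissue signal thus moved with the late genes, and its part in their rises was not tested.

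Smooth muscle contractile genes rose in 10 of 13 cases with a median of 0.44, which was 0.18 after quantile normalization. Actg2, enteric actin, rose 3.83-fold from 12.41 to 15.46 to 15.01 to 16.75, the times overlapping across sets, while Lmod1 and Kcnmb1 fell by 0.77 and 0.60. Endothelial markers were divided, with 3 of 12 rising (Emcn by 0.61) and 5 falling (Ptprb by 0.75). Of 18 interferon-stimulated genes 15 rose and none fell, with a median of 1.00. Oas1a, an antiviral RNA sensor, lay at 7.56 to 9.23 at 2 h and 10.15 to 10.90 at 24 h (4.1-fold, adjusted p 5.05e-08), and Oas2 rose 3.52-fold. The chemokine Ccl11, which attracts eosinophils, rose 4.99-fold, and Cxcl16 fell 2.95-fold.

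Leukocyte markers moved in both directions. Of macrophage markers 4 of 14 rose and 4 fell, shares near those of all genes (27.7% and 25.3%), with Cd14 rising 2.72-fold and the scavenging receptor Mertk falling by 0.90. Lymphocyte markers fell in 10 of 15 cases (median −0.36), but only 7 of 15 were above background and defining markers such as Cd4, Cd8a and Ms4a1 were at background level. Neutrophil and eosinophil markers rose in 1 of 14 (Ly6g, 2.89-fold) and fell in 4, with 5 above background. Mast cell markers fell in 6 of 9, the largest being Kit (2.82-fold), which other uterine cells also make. Of the 9, 6 were above background, and Tpsab1, Fcer1a and Ms4a2 were not.

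Adipocyte and liver markers varied widely between arrays. Adipocyte markers fell in 6 of 7 cases with a median of −1.46, but their summed signal ran from 10.90 to 16.35 at 2 h, from 9.56 to 12.11 at 24 h and from 10.73 to 15.52 in vehicle, and none was called in any single mouse set. Car3, a carbonic anhydrase of fat and muscle, ran from 9.36 to 15.59 at 2 h and from 7.94 to 11.01 at 24 h (shift −2.26 ± 0.73, adjusted p 0.0137). Its shift was −3.49 after IGF1 and −3.32 in ERaUtcKO mice, and the differences from E2 and from littermates did not pass the test (adjusted p 0.491 and 0.981). Liver transcripts fell in 4 of 9 cases. Alb, albumin, ran from 5.45 to 15.19 at 2 h and from 5.17 to 9.88 at 24 h, against a vehicle median of 12.73, and 5 of the 9 liver genes were at background. The liver signal went with the mouse set and, in C57 and ERaUtcKO littermates, also with treatment. Its sum in vehicle was 15.79 to 17.74 in C57, 10.21 to 13.85 in ERaUtcKO littermates and 8.06 and 8.13 in Ex3aERKO littermates. After E2 the sum in C57 was 12.35 to 15.35 at 2 h and 10.43 to 10.68 at 24 h. In ERaUtcKO littermates it was 9.85 to 9.99 and 9.31 to 9.51. Levels of liver-made genes against vehicle carry this difference. The part of fat or liver tissue in the shifts of Pparg, Retn, Cyp2e1 and other genes made there was not tested.

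Circadian clock genes fell in 10 of 16 cases and rose in 4. Per2 lay at 9.94 to 12.24 at 2 h and 7.56 to 9.65 at 24 h (5.5-fold lower, adjusted p 5.32e-14), Cry2 fell 6.4-fold, and both had been 1.70 and 1.71 above vehicle at 2 h. Dbp, a clock output factor, rose 3.19-fold, from 2.53 below vehicle to 0.86 below, and Per3 rose by 0.99 ± 0.11. The clock time of collection was not given, and time after injection and time of day cannot be told apart within these arrays. Genes responsive to glucocorticoids fell in 12 of 16 cases with a median of −0.97. In the ERα knockouts the same list had median shifts of −0.63 (ERaUtcKO) and −0.91 (Ex3aERKO), and 9 of its 16 genes differed from littermates in each, where 27.2% and 24.4% of all genes did.

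**Figure D4:**
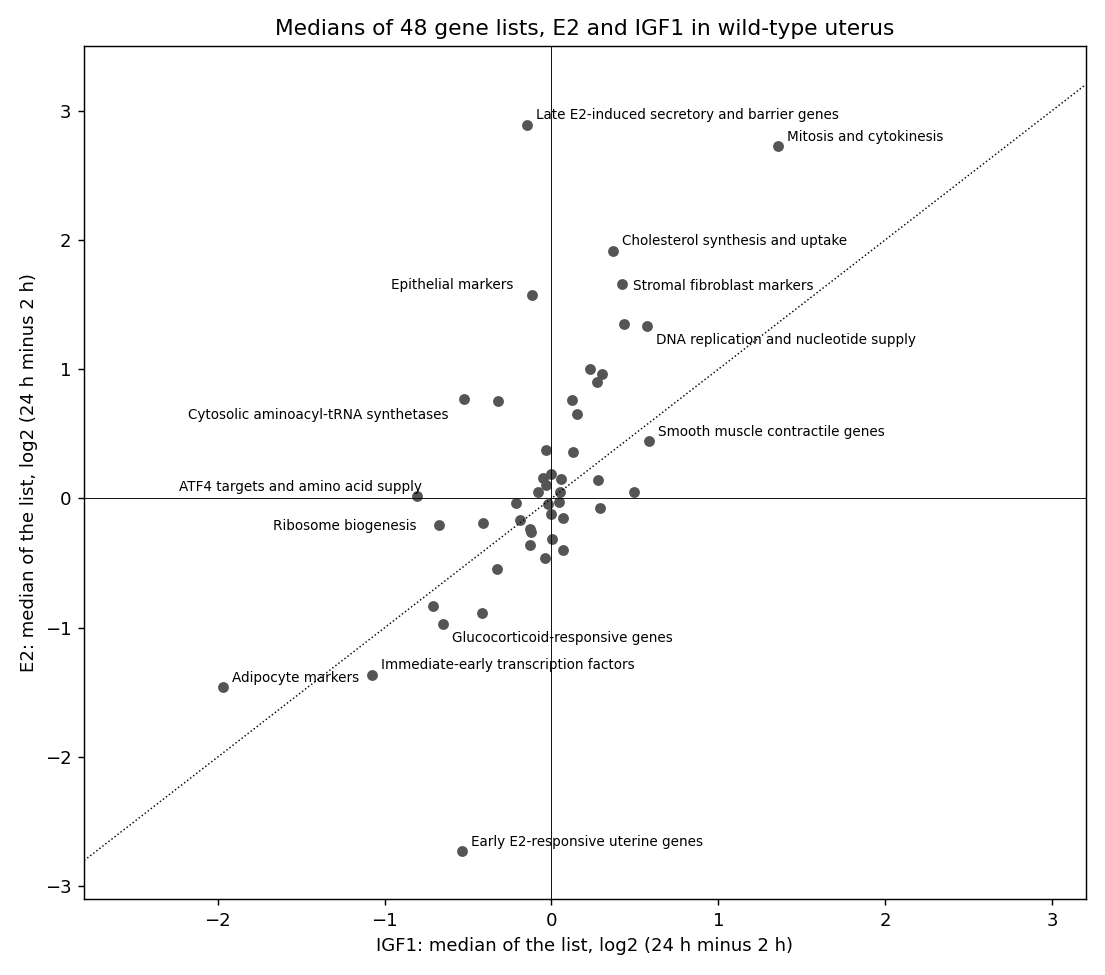
Median log2 shift (24 h minus 2 h) of the 48 lists after E2 (y axis, 18 arrays) against the same after IGF1 (x axis, 16 arrays), with the dotted line marking equality. Mitosis genes are at 2.73 after E2 and 1.36 after IGF1, late secretory and barrier genes at 2.89 and −0.15, and early E2-responsive genes at −2.73 and −0.53.

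IGF1 gave a measure of what the passage from 2 h to 24 h looks like after a growth factor that signals at the cell surface. After IGF1 10796 genes were called between the times (35.8%), 573 of them at least 2-fold higher and 358 at least 2-fold lower. The E2 shift differed from the IGF1 shift for 8027 genes (26.6%). Of the immediate-early genes 12 of 27 differed, and their IGF1 median was −1.08 against −1.36 for E2. Ccn1 lay at 10.51 to 13.94 at 2 h and 7.24 to 10.24 at 24 h after IGF1, a shift of −3.74, and the difference from its E2 shift did not pass the test (adjusted p 0.078). Cdkn1a also fell after IGF1 (shift −2.05), with no difference called (adjusted p 0.174).

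Among the early E2-responsive genes 16 of 20 shifts differed. Pgf was 6.06 to 7.99 at 2 h and 5.38 to 7.51 at 24 h after IGF1, with overlap, and its shift of −0.75 differed from that after E2 (adjusted p 5.26e-23). Mad2l1 shifted by 0.59 after IGF1 against −4.18 after E2 (adjusted p of the difference 4.43e-17), and Pdk4 by 1.13 against −4.39 (adjusted p 5.58e-10). Late genes differed too. Of the mitosis list 31 of 32 differed, yet its median still was 1.36 after IGF1. Mki67 went from 6.46, 8.64 and 11.08 to 10.39, 10.83 and 14.14, a shift of 2.74 against 4.33 after E2 (adjusted p 0.00256). Cholesterol genes had a median of 0.37 and 17 of 18 differed. In the secretory list 18 of 20 differed, with Sprr2f at 7.22 to 10.51 and 7.01 to 9.47 after IGF1 (shift −0.19) and Car2 at 10.17 to 12.97 and 10.16 to 12.84 (shift −0.15).

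For some genes no difference between the stimuli was called. Igfbp5 had shifts of 3.01 after IGF1 and 3.44 after E2 (adjusted p 0.303), the stress-response gene Sesn1 2.41 and 2.12 (adjusted p 0.306), and Lum 2.39 and 2.46 (adjusted p 0.905). A difference that was not called does not show that the shifts were equal. The tRNA synthetases, in contrast, had a median of −0.32 after IGF1 against 0.76 after E2, with 16 of 17 differing.

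**Figure D5:**
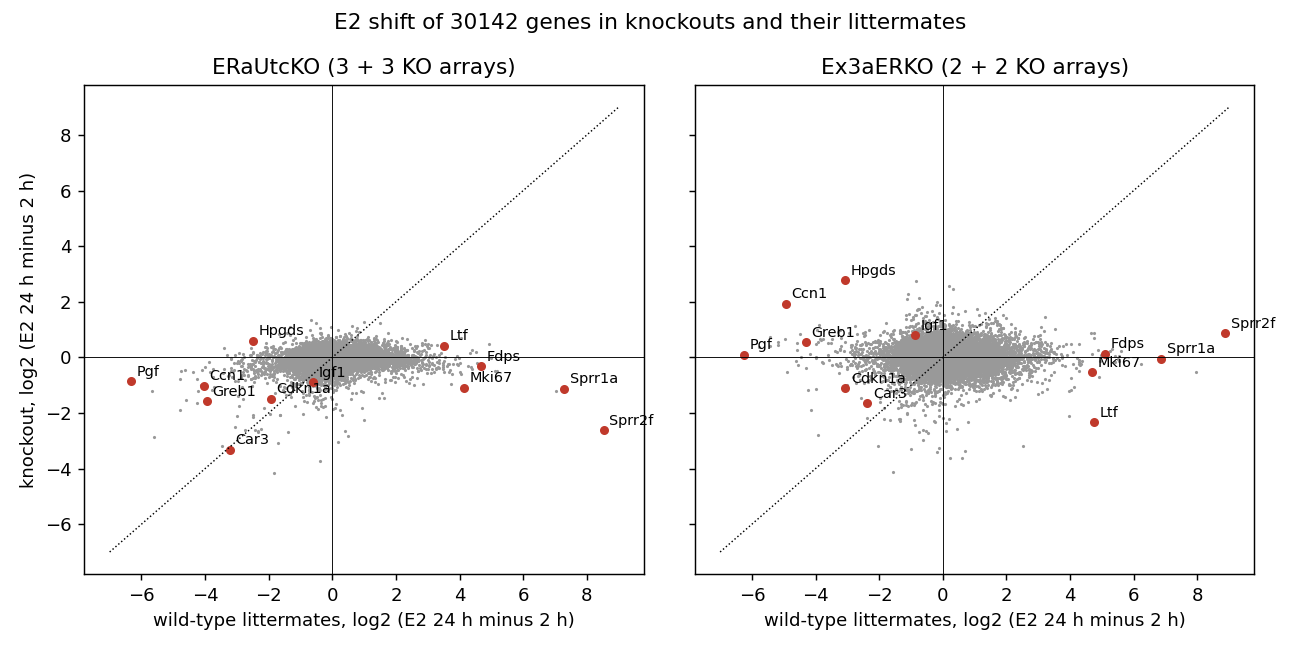
E2 shift (24 h minus 2 h, log2) of 30142 genes in ERaUtcKO (left, 3 arrays per time) and Ex3aERKO mice (right, 2 per time) on the y axis against their own wild-type littermates on the x axis, with 12 genes named and the dotted line marking equality. Pgf shifted by −6.33 and −6.25 in the littermates and by −0.87 and 0.10 in the knockouts.

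In the knockouts far fewer genes were called between the times. Esr1 itself was checked first. After E2 it ran from 10.42 to 11.01 in ERaUtcKO and from 9.38 to 10.28 in Ex3aERKO arrays, below all of their littermates' E2 arrays (11.66 to 12.39 and 11.44 to 12.09). Between 24 h and 2 h 204 genes (0.677%) were called in ERaUtcKO, 41 higher and 163 lower, where 12093 were called in its littermates with as many arrays. In Ex3aERKO, with only 2 arrays per time, 217 (0.720%) were called against 10290 in its littermates with 3 per time. The shift itself differed from the littermates' for 8209 genes in ERaUtcKO (27.2%) and for 7354 in Ex3aERKO (24.4%).

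Pgf was at 7.58, 6.97 and 7.17 in the 3 ERaUtcKO arrays at 2 h and at 6.47, 6.60 and 6.05 at 24 h (difference in shift from littermates 5.46, adjusted p 1.43e-06). Greb1 kept a smaller fall in ERaUtcKO, from 8.30, 7.64 and 7.84 to 6.35, 6.26 and 6.44, which was still less than in littermates (adjusted p 2.13e-05). Its values in Ex3aERKO were 5.45 and 5.51 at 2 h and 5.63 and 6.42 at 24 h. Mki67 was at 8.10, 7.68 and 6.69 and then 5.78, 7.02 and 6.41 in ERaUtcKO, with no rise called. Fdps stayed between 6.76 and 8.17 in every knockout array of either line. The difference from littermates was called for 31 of 32 mitosis genes in ERaUtcKO and 30 in Ex3aERKO, for all 18 cholesterol genes in each, and for 17 of 20 secretory genes in each.

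Certain values in the knockouts turned on single arrays. Sprr2f was at 12.15, 7.15 and 5.35 in the ERaUtcKO arrays at 2 h and at 5.47, 5.96 and 5.37 at 24 h, so 1 array at 2 h was far above the others. The difference of its shift (−2.62) from that of littermates (8.53) was called (adjusted p 0.000742). Ltf in Ex3aERKO was at 16.48 and 11.91 at 2 h and 12.70 and 11.04 at 24 h (difference adjusted p 0.00978). Hpgds, which makes prostaglandin D2, moved the other way in Ex3aERKO. It fell 7.5-fold over the 18 wild-type arrays, and in Ex3aERKO it went from 10.08 and 9.53 to 12.63 and 12.52 (difference adjusted p 8.62e-06).

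In ERaUtcKO the difference from littermates was called less often among early genes than in the late lists above. It was called for 13 of 27 immediate-early genes, 13 of 20 early E2-responsive genes and 8 of 16 feedback inhibitors of ERK. The counts in Ex3aERKO were 23, 17 and 9. Over all genes the shares were 27.2% and 24.4%. Examples of early genes with no difference called in ERaUtcKO follow. Cdkn1a was at 10.47, 9.46 and 9.53 at 2 h and at 8.45, 8.35 and 8.19 at 24 h, a shift of −1.49 against −1.93 in littermates (difference adjusted p 0.385). Igf1 was at 11.10, 11.04 and 11.08 and then 9.66, 10.78 and 10.07, a shift of −0.90, itself not past the test (adjusted p 0.106), against −0.61 (adjusted p of the difference 0.537). Inhbb, an activin subunit, shifted by −1.33 against −1.32 (adjusted p 0.976). In Ex3aERKO, where every cell lacks the receptor, the corresponding shifts were −1.12, 0.80 and 0.38, and each differed from littermates (adjusted p 0.00415, 0.00351 and 0.00139). Whether the lines differ from each other was not tested.

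The size of the shift also depended on the mouse set. An interaction of set and time was called for 2209 genes (7.33%), 708 of them among the 2647 with changes of at least 2-fold. It was most frequent where C57 mice were involved: 1970 genes differed between C57 and the Ex3aERKO littermates, 1775 between C57 and the ERaUtcKO littermates and 49 between the littermate sets. By list, the interaction was called for 13 of 27 immediate-early genes (48.1%), 9 of 20 early E2-responsive genes, 10 of 18 cholesterol genes (55.6%), 13 of 22 ribosome biogenesis genes, 9 of 13 smooth muscle genes, 9 of 17 tRNA synthetases, 8 of 19 G1 to S regulators and 13 of 39 DNA replication genes (33.3%). For 3 of 32 mitosis genes (9.38%) and 2 of 20 secretory genes it was called at a share near that over all genes.

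Fos fell by 6.51 in C57, 3.82 in Ex3aERKO littermates and 2.87 in ERaUtcKO littermates, Oxtr, the oxytocin receptor, by 6.38, 3.22 and 2.42, and Wnt4, a WNT ligand of the stroma, by 4.81, 1.45 and 1.24. In the other direction, H1f5 rose by 3.05, 6.22 and 4.55 and Crabp1, a retinoic acid binding protein, by 3.28, 5.54 and 3.93. Fos, Oxtr and Wnt4 thus had their largest falls in C57, and H1f5 and Crabp1 their largest rises in the Ex3aERKO littermates. Of the other genes named below with an upward mean shift, Fabp6 and Serpina1c also shifted upward most in the Ex3aERKO littermates. C2cd4a, however, did so in C57 and Tmem100 in the ERaUtcKO littermates. Serpina1c and Tmem100 shifted downward in C57. Among all 2209 genes the largest shift by size was in C57 for 844, in Ex3aERKO littermates for 1001 and in ERaUtcKO littermates for 364. Vendor, litter and any difference in normalization went together with the set and cannot be told apart.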

How the data were processed

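Uterine RNA from 68 samples was hybridised to Affymetrix mouse transcriptome arrays. The authors deposited 1 table of log2 intensities for 72688 probe sets, already normalized, by a method not given in the sources used here, and these log2 values were used as they stood. Symbols came from GEO's platform annotation, updated through RefSeq: 30604 probe sets had 1 symbol, 2146 had several and 39938 were not listed, so that they are unnamed here. Each of 30142 genes was represented by its probe set of highest mean.

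The shift was fitted with limma 3.58.1 in R 4.3.3 on 18 wild-type arrays with terms for time and mouse set, Benjamini-Hochberg adjustment over all genes, 2-sided, with a threshold of 0.05 and a log2 change of 1 as 2-fold. Vehicle contrasts used 26 arrays, the IGF1 contrast 34, and the knockout contrasts the arrays of each line and its littermates. The residual degrees of freedom of the main fit were 14. The procedure was tested on simulated data.

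The members and the gene lists were chosen with earlier results of these data known. Named genes were the 12 largest rises and 12 largest falls with the same sign in each set, passing over predicted and RNA genes, up to 4 members of each list, the 6 largest differences in each direction for each contrast of shifts, the 6 leading genes of each phase group, and a set of known E2 genes. Others are named as chosen after their values were seen. Of 941 list entries 862 were measured. Promoters, 250 bases before the start, came from RefSeq (GRCm38.p6) and were matched by symbol for 15155 genes with a single entry.

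Alternatives included centring each array on its median, quantile normalization, no set term, a replicate block, each set alone and each array left out.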

Additional observations from a re-analysis of the deposited data

Results flagged for a closer look

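The shift from 2 h to 24 h differed between the mouse sets, by a test of the set and time interaction, for 2209 genes. Named among them are genes that fell most in C57 mice: Oxtr (limma adjusted p of the interaction 1.84e-06), Fos (0.000227), Wnt4 (1.38e-06), Inhbb (1.97e-06), Nr4a1 (0.00156) and Alb (0.0282). Inhbb shifted by −4.74 in C57, −2.12 in Ex3aERKO littermates and −1.32 in ERaUtcKO littermates, and Nr4a1 by −6.33, −3.47 and −1.72. Alb, whose arrays vary widely, shifted by −3.46, −0.25 and −0.94.

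C2cd4a, a nuclear factor of inflammation, rose by 4.78 in C57 against 0.99 and 0.32 in the littermate sets (adjusted p 1.84e-06). Fabp6, a bile acid binding protein, had 0.27 in C57 against 4.20 and 2.64 (adjusted p 5.65e-05). H1f5 (adjusted p 0.00124) and Crabp1 (0.011) had their largest rises in the Ex3aERKO littermates. Signs differed for Serpina1c, a protease inhibitor gene of liver, at −0.80, 2.18 and 0.54 (adjusted p 0.0133), and for Tmem100, an endothelial membrane protein, at −0.96, 0.30 and 1.64 (adjusted p 0.00284).

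Outside the annotation used for names lie 33206 transcript probe sets that enter no comparison above. Among them 635 were at least 2-fold higher and 1790 at least 2-fold lower at 24 h in the same fit, and 13320 were called in all. Of 23 antigenomic control probe sets 1 was called and of 92 ERCC spike-in probe sets 6, none of them with a 2-fold change. Control probe sets of other kinds were not flat. Of 6617 such probe sets 3420 were called, 294 at least 2-fold higher and 1218 at least 2-fold lower, with a median difference of −0.42. The cause was not tested. These probe sets are unnamed here.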

How the results depend on the processing

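Most results kept their direction and their side of the threshold. Leaving out each array in turn gave 15376 to 16187 called genes, 8170 to 8343 higher and 7114 to 7960 lower, 1681 to 1800 at least 2-fold higher and 880 to 1012 at least 2-fold lower, 6775 to 8176 for the difference from ERaUtcKO and 5175 to 7034 for that from Ex3aERKO. Without the mouse set term 4525 genes were called, 2798 higher and 1727 lower. In smaller sets fewer were called: C57 alone gave 4843 lower, and the Ex3aERKO littermates alone 10602 called and 4361 lower. Calls of at least 2-fold were not fewer throughout. They numbered 1558 higher and 1090 lower in C57 alone and 2263 and 1169 in the Ex3aERKO littermates alone. The ERaUtcKO littermates alone gave 1704 and 786, against 1748 and 899 in the main fit. For genes fallen at 24 h in C57, centring each array gave 282 lower in the littermates. Choosing genes in C57 at 1.5-fold gave 1341, 1381, 2718 and 1408 that moved as described in the littermates (risen and fallen at 2 h, risen and fallen at 24 h) and at 3-fold 376, 149, 496 and 122, which follows from the number chosen. In C57 alone Cd68 (−0.0085), Prg2 (0.0159) and Tmem100 (−0.96) changed sign, as did Lyz2 (0.0842) and Thbs1 (0.0231) in ERaUtcKO littermates alone. Serpina1c also shifted downward in C57 against an upward mean. The cause was not tested. Replicate numbers did not pair the samples (correlations of deviations from −0.275 to 0.020); with the replicate block 15118 genes were called and the 2-fold counts stayed at 1748 and 899. Values near the antigenomic background limit the fold of low genes.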

Other observations

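Genes of prostaglandin metabolism moved in both directions. Of 16 measured genes 8 rose and 6 fell. Ptges, the synthase of prostaglandin E2, lay at 9.28 to 11.59 at 2 h and 6.59 to 7.35 at 24 h and fell 10.5-fold (limma adjusted p 2.76e-11) to its vehicle level (0.02 above). Hpgd, which inactivates prostaglandins, ran from 8.78 to 9.86 at 2 h and from 10.88 to 11.97 at 24 h. It rose 4.32-fold (adjusted p 2.02e-12) and was 3.16 below vehicle at 2 h and 1.05 below at 24 h. Pla2g4a, the phospholipase that frees arachidonic acid, rose 2.93-fold.

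Of 17 genes of retinoid handling and steroid metabolism 4 rose and 8 fell, where 27.7% and 25.3% of all genes did. Hsd17b11 was at 13.43 to 14.60 at 2 h and 10.84 to 11.88 at 24 h (6.34-fold lower, adjusted p 2.14e-15), whereas Hsd11b2, which inactivates glucocorticoids, rose 6.32-fold. Aldh1a2, a retinoic acid synthase, fell by 1.10 ± 0.10 and remained 1.94 above vehicle. In the TGF-beta list 10 of 19 genes fell and 3 rose, with Tgfb2 falling 3.87-fold and Fstl1 rising 2.13-fold. Among WNT genes 8 of 35 rose and 11 fell, shares near those of all genes (27.7% and 25.3%). Axin2, a feedback target of the pathway, went from 10.55 to 12.27 at 2 h to 7.79 to 9.33 at 24 h (6.68-fold lower, adjusted p 1.33e-13), and Wnt5a rose 3.28-fold. Sesn1 and Sesn3, FOXO targets, were 3.04 and 2.32 below vehicle at 2 h and 0.93 and 0.32 below at 24 h, while Bcl6 fell 4.21-fold.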
